A study of Homo sapiens with 2 samples.

Results

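The 45 genes described here are the integrin chains and the cytoplasmic scaffold proteins of focal adhesions, among them GIT1. They were chosen by name, with earlier results of these data known, as 16 integrin alpha chains, 8 integrin beta chains and 21 scaffolds. All 45 were measured, of 22465 genes with 1 gene symbol on the array. The RNA came from IGROV1-R10, a cisplatin-resistant subline of the human ovarian carcinoma line IGROV1. One culture was transfected with a duplex of miR-491-5p and the other with a control miRNA duplex, both at 20 nM and 24 hours after seeding, and RNA of each was hybridised to 1 whole-transcript Affymetrix array. Both groups are this single cell line under transfection reagent, with no untransfected array, and the sequence of the control duplex is not given in the sources used here. With 1 array per group there is no spread between cultures, so the differences below carry no error and no p-value and describe these 2 arrays. The highest deposited values, 19.22 and 19.18, lie above what scanners usually record on the log2 scale, so the scale may be stretched, and every fold below is 2 to the power of the deposited difference.

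Integrins are transmembrane receptors made of 1 alpha and 1 beta chain. Together the chains bind matrix proteins outside the cell, and the short beta tail recruits talin and kindlin inside it. Around these tails a focal adhesion assembles, in which paxillin, vinculin, zyxin, tensins and the complex of ILK, PINCH and parvin join the receptor to actin. FAK and the GIT proteins add signalling to kinases and to small GTPases that control turnover of the adhesion and cell movement. In carcinoma cells this machinery is known for its roles in spreading, migration and survival on matrix.

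The transfected miRNA is shown here because its seed, in capitals, is the stretch that pairs with messenger RNAs. The mature sequence is RefSeq's, from chr9:20716120-20716141 on the + strand of GRCh38.p14, and 0 other mature human miRNAs in the same table carry these 7 seed bases. Matching sites in the members' transcripts were not analysed here.
hsa-miR-491-5p: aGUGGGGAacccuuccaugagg

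The clearest differences were lower values on the miR-491-5p array in 8 of the 45 genes: the scaffolds GIT1, PXN, ZYX, TLN1 and PARVA, and the integrin chains ITGA3, ITGB8 and ITGA5. Each was at least 1.5-fold lower, and GIT1, ITGA3 and PXN reached 2-fold. Of the 45 genes, 29 had a mean of the 2 arrays at or above 5.55 (log2), the median of all deposited values, which served as the signal filter. The 8 genes are 27.6% of these 29, whereas 3.64% of all 14030 genes above the filter were at least 1.5-fold lower. Among the 6109 genes with a mean signal of 9 or more, a range that holds all 8, the share was 5.34%. The 3 genes at 2-fold or more compare with 0.777% of all genes. None of the 29 was higher by 1.5-fold or 2-fold, directions that held 0.677% and 0.0499% of all genes. Because the genes were chosen with earlier results of these data known, these shares describe the list and are no independent test of it.

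In all, 25 of the 29 genes had a difference below 0, against 64.5% of all genes above the filter, whose median difference was -0.07. The median of the 29 was -0.16. This small general tilt is removed when the differences are centred on the median of all genes, which puts that median at 0. Then 18 of the 29 were below 0, and the 8 genes named above are among these 18. The signs of ITGA2, ITGA6, PTK2B, PARVB, LIMS1 and LIMS2 turned under centring. A loess correction turned the same genes except ITGA2, and turned TNS3, so these small differences have no settled direction. The same 8 genes were past 1.5-fold under centring and under the loess correction. Because the RNA is from whole cultures, fewer cells expressing a gene and less RNA per cell cannot be told apart.

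**Figure D1:**
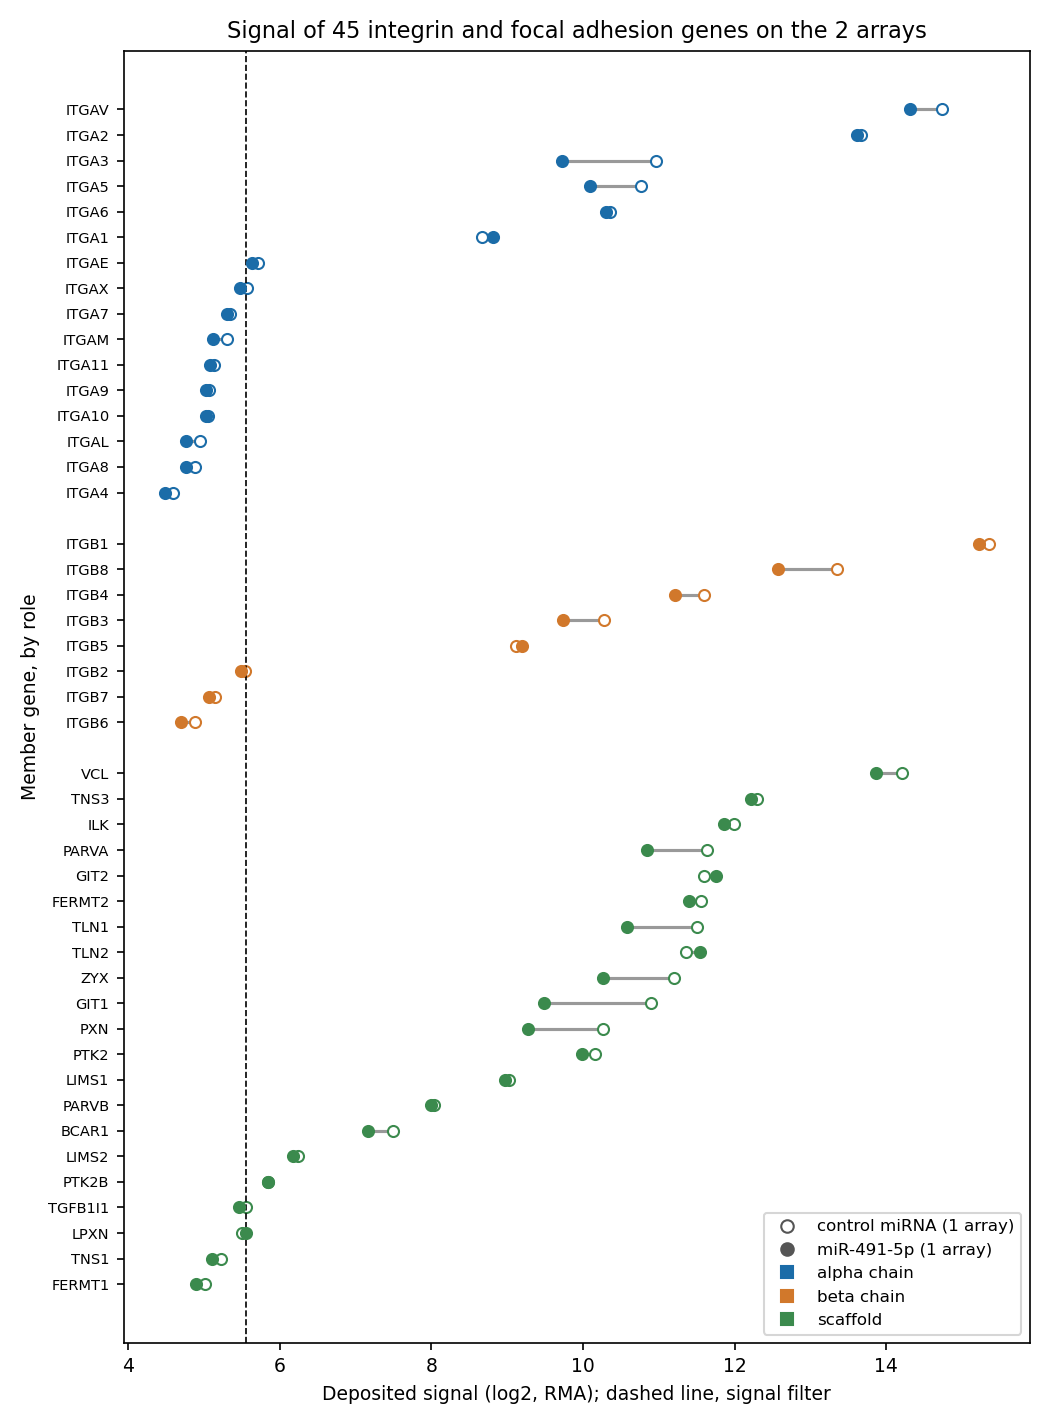
Deposited log2 signal of the 45 genes, grouped into alpha chains, beta chains and scaffolds, with an open circle for the control array and a filled circle for the miR-491-5p array. The longest segments belong to GIT1 and ITGA3, and the genes left of the dashed filter line at 5.55 lie close together on both arrays.

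Signals of different probe sets depend on probe affinity as well as on transcript amount, so levels are given by range and no gene is ranked above another. Above the filter, alpha chains ran from 5.72 to 14.73 on the control array with a median of 10.77, beta chains from 9.12 to 15.35 with a median of 11.60, and scaffolds from 5.85 to 14.21 with a median of 11.20. The corresponding medians on the miR-491-5p array were 10.09, 11.22 and 10.26. On both arrays these medians are the readings of single genes, ITGA5, ITGB4 and ZYX, so their change is not the shift of a role. The median differences of the genes were -0.09 for alpha chains, -0.38 for beta chains and -0.16 for scaffolds. The 3 roles thus covered overlapping ranges of signal on both arrays.

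Among the alpha chains, 7 of 16 passed the filter and 2 of these (28.6%, beside 3.64% of all genes) were at least 1.5-fold lower. The laminin-binding chains differed from each other most. ITGA3, the alpha chain of the laminin receptor alpha3beta1, read 9.72 on the miR-491-5p array and 10.96 on the control array, a difference of -1.24 (2.36-fold lower). It ranked 46th from the lowest of the 14030 genes. ITGA6, the laminin-binding chain that pairs with ITGB1 or ITGB4, read 10.31 against 10.36.

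The chains that recognise the RGD motif of fibronectin and vitronectin were lower by smaller amounts. ITGA5, the alpha chain of the classical fibronectin receptor, read 10.09 on the miR-491-5p array against 10.77 (difference -0.68, 1.60-fold lower, and -0.61 after centring). ITGAV, which pairs with several beta chains to bind vitronectin and latent TGF-beta, read 14.31 against 14.73 (difference -0.42), short of 1.5-fold. Of the collagen receptors, ITGA2 read 13.61 against 13.67 and ITGA1 8.82 against 8.67. A further probe set shared by ITGA1 and PELO, which lies outside the gene comparison because it carries more than 1 symbol, read 8.45 against 8.88, so the ITGA1 locus gave opposite signs.

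The remaining alpha chains were at or below the filter. ITGAE, the lymphocyte chain that binds E-cadherin, stood just inside it with a mean of 5.675 (5.63 against 5.72), and ITGAX, a myeloid chain, just outside with a mean of 5.525 (5.48 against 5.57). ITGA4, ITGA7, ITGA8, ITGA9, ITGA10 and ITGA11 and the leukocyte chains ITGAL and ITGAM were below it. The 9 alpha chains below the filter differed by -0.18 to -0.03. Signal over background is unknown for these values.

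Among the beta chains, 5 of 8 passed the filter and 1 of these (20.0%, beside 3.64% of all genes) was at least 1.5-fold lower. ITGB8, which pairs with ITGAV to bind and activate latent TGF-beta, read 12.57 on the miR-491-5p array against 13.35 on the control array, a difference of -0.78 (1.72-fold lower). ITGB3, the beta chain of the vitronectin receptor alphavbeta3, followed at 9.74 against 10.28 (difference -0.54). ITGB4, the hemidesmosomal partner of ITGA6, read 11.22 against 11.60 (difference -0.38). The common partner of most alpha chains, ITGB1, read 15.22 against 15.35 (difference -0.13). Among the beta chains known to pair with ITGAV, differences therefore ran from -0.78 for ITGB8 to 0.08 for ITGB5 (9.20 against 9.12).

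The median difference was -0.38 for the 5 beta chains and -0.09 for the 7 alpha chains. With ITGB2, ITGB6 and ITGB7 included, which lay below the filter, the beta median was -0.16, so this contrast between the roles rests on which chains are counted. ITGB2, the leukocyte beta chain, read 5.49 against 5.54, ITGB7 5.07 against 5.15 and ITGB6, an epithelial chain, 4.70 against 4.89. A pair of further ITGB1 probe sets read 6.44 against 6.65 and 4.33 against 4.14, the second below the filter.

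**Figure D2:**
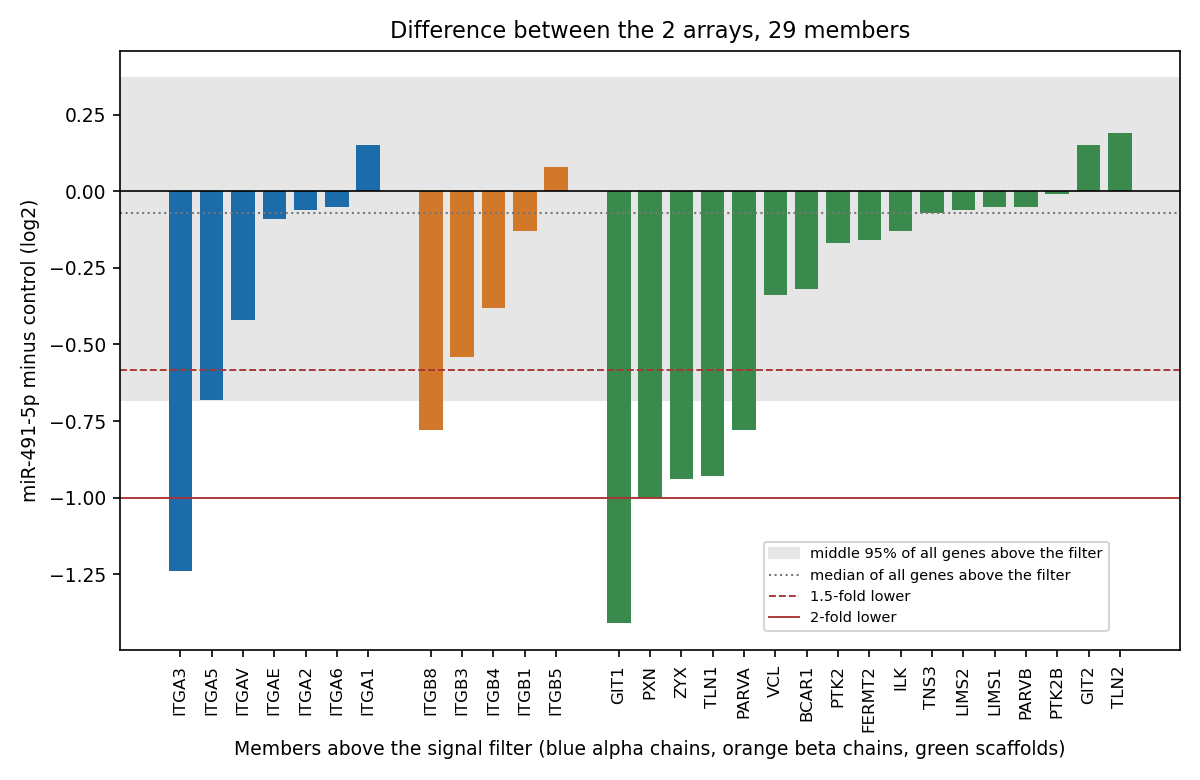
Difference between the arrays (miR-491-5p minus control, log2) for the 29 genes above the filter, by role, with the middle 95% of all genes (-0.68 to 0.37) shaded and lines at 1.5-fold and 2-fold lower. GIT1 and ITGA3 pass the 2-fold line, PXN ends on it, and no gene extends above the shaded band.

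Among the scaffolds, 17 of 21 passed the filter, 5 of them (29.4%, beside 3.64% of all genes) were at least 1.5-fold lower and 2 reached 2-fold. Their median difference was -0.16. GIT1, a GTPase-activating protein for ARF6 that brings the exchange factor ARHGEF7 and the PAK kinases to paxillin, was the lowest of the 45 genes. It read 9.49 on the miR-491-5p array and 10.90 on the control array, a difference of -1.41 (2.66-fold lower), 27th from the lowest of all genes. GIT1 has been reported in the literature as a target of miR-491-5p, so its place in the list was not chosen blind.

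Paxillin, the adaptor to which GIT1 binds, was also lower. PXN read 9.27 against 10.27, a difference of -1.0 that lies exactly on the 2-fold line and moves to -0.93 after centring. The other paxillin family genes were just below the filter: LPXN, known mainly from leukocytes, read 5.56 against 5.51, and TGFB1I1, which encodes Hic-5, 5.46 against 5.56. BCAR1, the p130Cas adaptor that FAK and SRC phosphorylate, read 7.17 against 7.49 (difference -0.32).

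The kinases of the FAK family showed small differences. PTK2, which encodes FAK itself, read 9.99 on the miR-491-5p array against 10.16 (difference -0.17), and PTK2B, its relative PYK2, 5.84 against 5.85. Both lay inside the middle 95% of all genes.

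The proteins that link integrin tails to actin were divided. TLN1, the talin that switches integrins to their active form, read 10.58 on the miR-491-5p array against 11.51, a difference of -0.93 (1.91-fold lower). ZYX, the zyxin of mature adhesions and stress fibres, read 10.26 against 11.20, a difference of -0.94 (1.92-fold lower). VCL, the vinculin that binds talin under tension, read 13.87 against 14.21 (difference -0.34), FERMT2, or kindlin-2, 11.40 against 11.56, and TNS3, a tensin, 12.22 against 12.29. TLN1 and ZYX thus stood outside the middle 95% of all genes, whereas VCL, FERMT2 and TNS3 lay within it. FERMT1 (4.90 against 5.02) and TNS1 (5.11 against 5.23) were below the filter.

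Of the complex of ILK, PINCH and parvin, 1 of 5 genes was past 1.5-fold (20.0%, beside 3.64% of all genes). PARVA, or alpha-parvin, which links ILK to actin, read 10.85 on the miR-491-5p array against 11.63 (difference -0.78, 1.72-fold lower). ILK, the pseudokinase at the centre of the complex, read 11.86 against 11.99, and the PINCH genes LIMS1 and LIMS2 read 8.97 against 9.02 and 6.18 against 6.24. A probe set shared by LIMS1 and other LIMS genes read 6.64 on both arrays. The lower value was therefore found in 1 subunit, with the other 4 between -0.13 and -0.05.

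**Figure D3:**
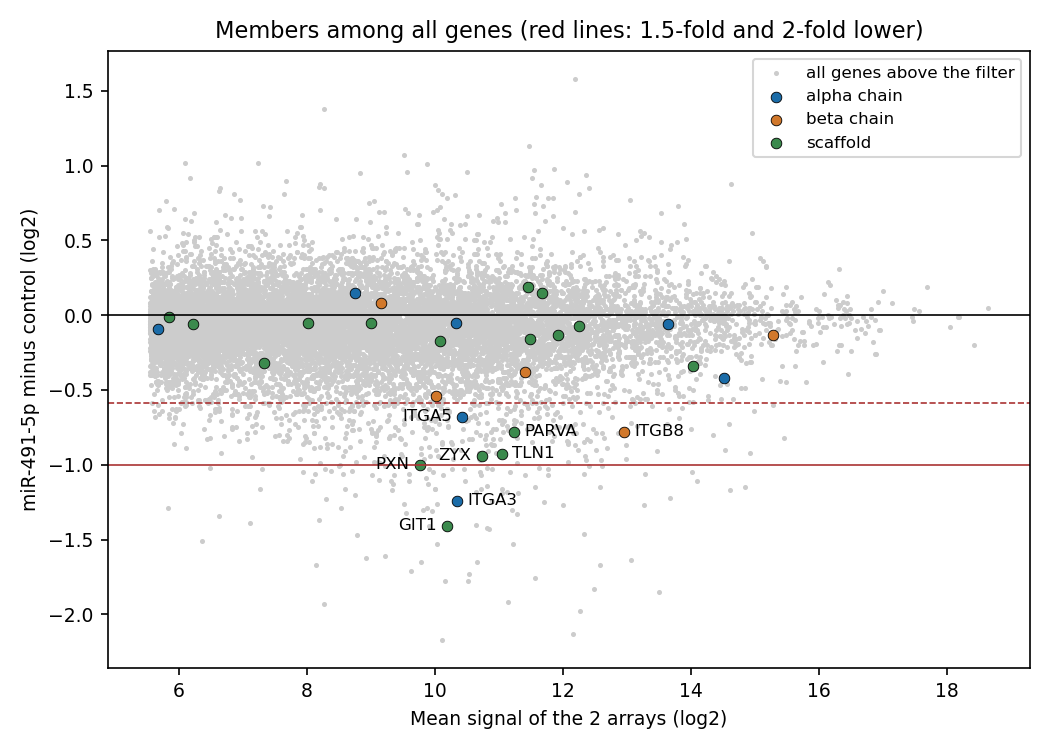
Difference between the arrays against mean signal (both log2) for the 14030 genes above the filter in grey, with the 29 described genes in colour and the 8 that are at least 1.5-fold lower named. The 8 have mean signals from 9.77 to 12.96, away from the dim end of the plot.

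Closely related genes lay apart in 3 of 5 pairs with both members above the filter. GIT2, which shares the GTPase-activating and paxillin-binding functions of GIT1, read 11.75 against 11.60 (difference 0.15), so the differences of GIT1 and GIT2 were 1.56 apart, GIT1 being lower. TLN2, the second talin, read 11.55 against 11.36 (difference 0.19), 1.12 above the difference of TLN1. PARVB, or beta-parvin, read 7.99 against 8.04, 0.73 above that of PARVA. LIMS1 and LIMS2 differed by 0.01 in this measure and PTK2 and PTK2B by 0.16. The arrays hold no spread against which to test these gaps.

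**Figure D4:**
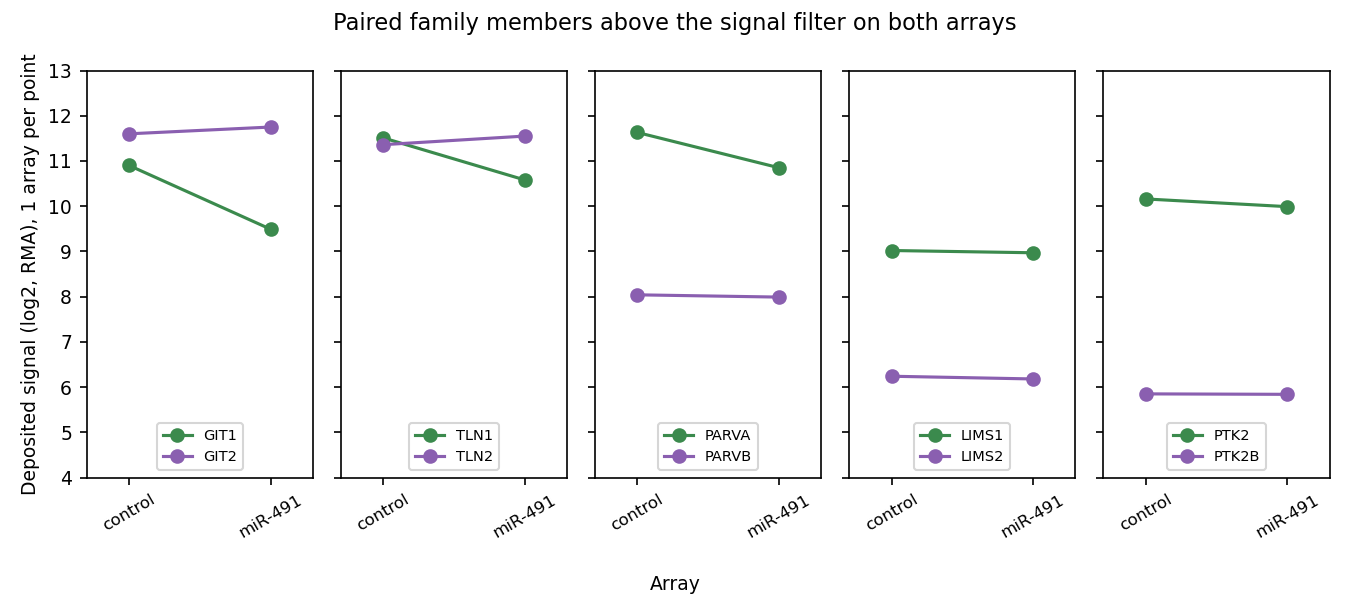
Deposited log2 signal on the control and miR-491-5p arrays for 5 pairs of related genes, 1 array per point. GIT1, TLN1 and PARVA slope down while GIT2, TLN2 and PARVB stay within 0.19 of their control value.

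The sequences before the transcription starts of the lower scaffolds GIT1, PXN, ZYX and TLN1 are shown, with those of the relatives GIT2 and TLN2. They were chosen after values were seen, and shared control of these genes was not tested. Each run is the 250 bases before the first start listed for the gene by RefSeq on GRCh38.p14. The positions are chr17:29589649-29589898 (- strand) for GIT1, chr12:120265731-120265980 (- strand) for PXN, chr7:143381095-143381344 (+ strand) for ZYX, chr9:35732196-35732445 (- strand) for TLN1, chr12:109996369-109996618 (- strand) for GIT2 and chr15:62390300-62390549 (+ strand) for TLN2. Capitals mark matches on either strand to the GC box GGGCGG bound by SP1 or to the AP-1 motif TGANTCA.
GIT1: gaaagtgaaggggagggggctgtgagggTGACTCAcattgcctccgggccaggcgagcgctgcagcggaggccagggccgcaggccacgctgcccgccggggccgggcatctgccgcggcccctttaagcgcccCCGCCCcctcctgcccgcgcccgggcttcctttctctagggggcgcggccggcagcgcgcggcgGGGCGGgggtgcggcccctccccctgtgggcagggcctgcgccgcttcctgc
PXN: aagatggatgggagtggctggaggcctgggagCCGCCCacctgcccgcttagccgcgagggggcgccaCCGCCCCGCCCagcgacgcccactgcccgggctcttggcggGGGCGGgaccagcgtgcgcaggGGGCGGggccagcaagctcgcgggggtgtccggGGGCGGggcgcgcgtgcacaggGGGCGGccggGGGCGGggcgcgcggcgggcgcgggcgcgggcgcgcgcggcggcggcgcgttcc
ZYX: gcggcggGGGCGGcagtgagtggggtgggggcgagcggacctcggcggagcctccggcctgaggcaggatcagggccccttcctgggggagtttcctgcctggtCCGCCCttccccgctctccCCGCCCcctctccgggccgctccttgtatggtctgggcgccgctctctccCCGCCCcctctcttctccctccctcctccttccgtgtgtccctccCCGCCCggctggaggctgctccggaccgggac
TLN1: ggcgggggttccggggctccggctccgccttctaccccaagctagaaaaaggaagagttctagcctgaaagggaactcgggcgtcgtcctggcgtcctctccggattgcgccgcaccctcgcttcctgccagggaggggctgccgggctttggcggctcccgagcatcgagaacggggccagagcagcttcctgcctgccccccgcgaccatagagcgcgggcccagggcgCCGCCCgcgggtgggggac
GIT2: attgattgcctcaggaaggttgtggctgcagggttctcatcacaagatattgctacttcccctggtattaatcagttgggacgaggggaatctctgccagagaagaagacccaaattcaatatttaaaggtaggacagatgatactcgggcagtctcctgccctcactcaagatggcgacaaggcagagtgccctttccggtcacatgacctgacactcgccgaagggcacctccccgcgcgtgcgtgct
TLN2: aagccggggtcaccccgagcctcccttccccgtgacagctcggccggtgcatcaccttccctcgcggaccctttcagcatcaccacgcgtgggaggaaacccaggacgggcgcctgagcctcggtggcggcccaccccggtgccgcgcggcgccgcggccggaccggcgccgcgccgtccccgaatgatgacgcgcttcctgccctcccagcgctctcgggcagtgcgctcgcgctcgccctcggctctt

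A promoter sequence was matched for 33 of the 45 genes, among them 6 of the 8 lower genes (GIT1, PXN, ZYX, TLN1, ITGB8 and ITGA5). All 6 held at least 1 GC box, against 8 of 17 other genes above the filter and 42.3% of 27305 promoters of all genes. The values over all promoters, here and below, were taken without the signal filter, so they cover an unlike set. PXN held 8 GC boxes, 2 overlapping by 1 base, and GIT2 and TLN2 held none. PARVB, the relative of PARVA, held 4 with a difference of -0.05, and PARVA itself had no matched promoter. Counted over every listed start, the box was in 6 of 7 promoters of the lower genes, 16 of 35 of the other genes and 42.6% of all 35116, since the second PXN start lacks it. Base composition also differed between the sets: the 6 windows had a median GC content of 73.0% (70.0 to 83.6), the 17 others 70.4% (34.8 to 84.4) and all promoters 58.0%. FERMT2 held 8 boxes and LIMS1 held 7 with differences of -0.16 and -0.05. The part of base composition in these differences was not tested.

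An AP-1 match lay in the GIT1 window and in 1 of the 17 others, BCAR1, against 6.60% of all promoters. The ETS core CCGGAAG was in none of the 6 and in 1 of the 17, ITGB5 (8.82% of all promoters). The CArG box, the motif of serum response factor, was in none of the 6 or the 17 (1.14% of all promoters). No match says only that these letters are not in this window.

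Beyond the members, ASAP2, VASP, CSRP1 and FHL2 were lower. A list of 58 partners and further focal adhesion genes had 54 measured and 44 above the filter, with a median difference of -0.155. Of the 44, 0 were higher by 1.5-fold or more. Over all genes with a mean signal of 9 or more, a range that holds ASAP2, VASP and CSRP1 but not FHL2, 5.34% were at least 1.5-fold lower. The 4 genes (9.09% of the 44, beside 3.64% of all genes) were lower by 1.5-fold or more. They comprise ASAP2, an ARF GTPase-activating protein that binds FAK family kinases (12.01 against 12.85, difference -0.84), VASP, the actin polymerising partner of zyxin (9.45 against 10.20, difference -0.75), CSRP1, a LIM protein that binds zyxin and alpha-actinin (11.21 against 11.90, difference -0.69), and FHL2, a LIM protein of adhesions (8.11 against 8.73, difference -0.62, and -0.55 after centring, where it no longer passed and 3 genes remained). SORBS3, or vinexin, read 6.62 against 7.13. Of the genes for GIT1 partners named above, ARHGEF7 read 8.47 against 8.41, PAK2 11.93 against 12.08 and PAK4 8.10 against 8.47, and the substrate ARF6 read 11.93 against 12.14, while PXN was lower as given earlier. The 4 listed genes without a value were not analysed here.

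Of 23 genes for integrin ligands, 21 were measured and 11 passed the filter, with a median difference of -0.15. CCN1, a matricellular ligand of alphav and alpha6 integrins, was the 1 gene past 1.5-fold (9.09% of the 11, beside 3.64% of all genes). CCN1 read 11.27 against 11.92 (difference -0.65, and -0.58 after centring, where it no longer passed). The gamma chain LAMC1, part of laminins bound by alpha3 and alpha6 integrins, read 15.25 against 15.59, and SPP1, or osteopontin, 15.91 against 16.22. TNC, or tenascin-C, read 5.82 against 6.10 and FN1, fibronectin itself, 6.36 against 6.51. CDH1, the E-cadherin bound by the ITGAE chain, went the other way at 8.20 against 7.70 (difference 0.50). VTN and LAMA5 were not analysed here.

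Markers of the labelled cell type were present on both arrays: PAX8, the Müllerian lineage factor, read 14.59 on the miR-491-5p array and 14.77 on the control array, and EPCAM 13.29 against 12.93. All 6 markers of ovarian carcinoma and epithelium passed the filter, with MUC16 near it (5.94 against 5.89), WT1 at 8.29 against 8.25, KRT8 at 15.17 against 15.61 and KRT18 at 14.98 against 15.58. KRT18 was 1.52-fold lower, past the 1.5-fold line used for the members, and its part in their differences was not tested. The leukocyte marker PTPRC read 4.68 against 4.76 and CD14 4.29 against 4.42, both below the filter, as were all 5 measured fibroblast markers (4.52 to 5.58). CD68 (10.54 against 10.76) and CD3E (5.59 against 5.94) passed it. Of the platelet markers, GP1BA (4.27 against 4.22) lay below the filter. PF4 (5.58 against 5.55) and ITGA2B (5.92 against 6.0) passed it narrowly, as MUC16 did. Passing so narrowly does not by itself show expression. Of the integrins typical of leukocytes, ITGAL, ITGAM, ITGAX, ITGB2 and ITGB7 lay below the filter and ITGAE just above it.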

How the data were processed

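Total RNA (100 ng per array) was labelled as single-strand cDNA and hybridised, 1 array per group. The deposited table holds log2 signal for each transcript cluster, to 2 decimals. Per the submitters' processing notes RMA produced it. Its version and background settings are not stated in those notes. Column medians were 5.51 (miR-491-5p) and 5.59 (control), and sorted values differed by up to 0.14. Scanner intensities were not used, so signal over background is unknown.

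GEO's platform annotation names 1 gene for 23781 of the 67528 probe sets, several for 1543 and none for 42204. A gene with several probe sets was represented by the one of highest mean signal. The filter used the mean of both arrays, so that it favours neither direction. Differences are miR-491-5p minus control, and a fold is 2 to that power. Called means past 1.5-fold (0.585 on the log2 scale) or 2-fold.

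Members and lists were chosen with earlier results of these data known. The motifs, the shown promoters and the share among genes with a mean of 9 or more were chosen after values were seen. Genes described in full were members past 1.5-fold or with the largest differences per role, and the 5 largest of each list. The GIT1 partners and ligand FN1 named beside them were chosen after values were seen. The counting at 2-fold was tested on simulated data with planted differences, and the counting at 1.5-fold was not. Alternatives were median centring, loess (span 0.3), other filters and the mean of probe sets. Python 3.11.15, numpy 2.4.6, pandas 2.3.3 and statsmodels 0.14.6 were used.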

Additional observations from a re-analysis of the deposited data

How the results depend on the processing

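Leaving out a replicate was impossible with single arrays. No paired analysis was possible because the groups have 1 array apiece. The 8 genes at least 1.5-fold lower were the same 8 under median centring, the loess correction, no filter, a filter on both arrays or on either, and the mean of probe sets. Over all genes the share at least 1.5-fold lower was 2.70% after centring and 2.72% after loess. At 2-fold, 3 genes became 2 under centring and loess, where PXN stood at -0.93 and -0.92. Integrin ligands at least 1.5-fold lower went from 1 to 0 under both, and the partner list from 4 to 3, where FHL2 stood at -0.55 and -0.56. The median of beta chains was -0.16 with no filter, because 3 dim chains then count. Under centring and loess, differences of named genes rose by 0.07 and by 0.038 to 0.08. A shift was judged against 0.178, the SD of differences over genes from their median absolute deviation, which is no error between cultures.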
